A study of Homo sapiens with 6 samples.

Results

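KLKP1 is a transcribed pseudogene that lies among the kallikrein genes on human chromosome 19. Its row in a deposited read count table was read beside the rows of 8 kallikrein genes of the same cluster, KLK1, KLK2, KLK3, KLK4, KLK5, KLK10, KLK11 and KLK15. These are 9 of the 65746 genes in the table, found by gene symbol. KLKP1 was singled out because of its counts in the comparison described here, so its values and those of its 8 neighbours are given as a description, with no test.

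RNA came from SU-DHL-8, an established human line of diffuse large B-cell lymphoma cells. One group of 3 libraries had 15 µM beta-sitosterol, a plant sterol closely related in structure to cholesterol, for 24 h. The other 3 libraries had the solvent DMSO for the same time. All 6 are labelled wild type, and both groups were grown in the same serum-containing medium. Nothing in the labels says whether replicates were separate cultures, so the p-values below measure only the spread between these libraries.

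Tissue kallikreins are secreted serine proteases, made as inactive precursors and switched on by cleavage, often by one another. KLK1 releases kinins from kininogen, while KLK2 and KLK3 are products of the prostate epithelium whose genes respond to steroid hormones. The family is best known from glands, skin and prostate, not from B cells.

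Libraries held 26453101 to 29359951 counts after beta-sitosterol and 31314104 to 35565163 with DMSO. The correlation of log2 CPM across genes was 0.994 for each pair of treated libraries and 0.972 to 0.991 among DMSO libraries. CPM is the count relative to library size, scaled with TMM factors. All 7 B cell markers were detected, with summed levels of 2256 to 2420 CPM after beta-sitosterol and 1882 to 2536 CPM with DMSO. Single markers moved in both directions within that sum. MS4A1 and CD79A rose by 2.23 ± 0.17 and 1.05 ± 0.13 log2 units, with edgeR adjusted p of 0.000111 and 0.000535. PAX5 and EBF1 fell by 1.67 ± 0.11 and 2.07 ± 0.22 log2 units, with edgeR adjusted p of 8.07e-05 and 0.000331. In bulk RNA, a change in the number of cells of a type cannot be told apart from a change in RNA per cell.

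Because kallikrein genes resemble each other, the sequence of KLKP1 was compared with theirs. The 5-exon transcript of KLKP1 in GENCODE v29 is 1125 bases long. Its exon 4, 156 bases at chr19:50887719-50887874 on the minus strand of GRCh38, matched coding sequence of KLK1, KLK2 and KLK3. Only this exon of KLKP1 was aligned. The aligned stretches are shown because reads could be exchanged where the pseudogene and these genes are alike. They come from the main transcripts of KLK1 at chr19:50821716-50821857 (minus strand), KLK2 at chr19:50874734-50874872 (plus strand) and KLK3 at chr19:50856253-50856395 (plus strand). Each is written 5′ to 3′, and capitals mark bases of the kallikrein gene that differ from, or are missing in, KLKP1.
KLKP1: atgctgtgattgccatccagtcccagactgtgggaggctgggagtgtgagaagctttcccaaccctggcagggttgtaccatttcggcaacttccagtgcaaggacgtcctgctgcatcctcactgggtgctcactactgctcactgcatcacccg
KLK1: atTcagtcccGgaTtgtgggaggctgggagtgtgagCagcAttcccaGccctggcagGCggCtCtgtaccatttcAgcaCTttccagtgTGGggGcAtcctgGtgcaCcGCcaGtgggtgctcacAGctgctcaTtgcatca
KLK2: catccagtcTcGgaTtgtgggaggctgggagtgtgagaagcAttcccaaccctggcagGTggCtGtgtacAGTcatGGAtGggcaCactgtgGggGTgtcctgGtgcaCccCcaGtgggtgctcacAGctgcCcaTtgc
KLK3: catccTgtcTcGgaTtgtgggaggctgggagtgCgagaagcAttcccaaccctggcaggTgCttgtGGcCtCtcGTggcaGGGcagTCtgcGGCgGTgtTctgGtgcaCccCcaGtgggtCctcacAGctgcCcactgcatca

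The share of identical columns in these alignments was 81.7% for KLK1 (116 of 142), 77.2% for KLK2 (112 of 145) and 75.9% for KLK3 (110 of 145). The longest run of identical bases between that KLKP1 transcript and the main kallikrein transcript was 22 bases for KLK1, 26 for KLK2 and 18 for KLK3. Over all annotated KLKP1 transcripts, 7 of 1882 distinct stretches of 31 bases occurred in transcripts of other genes, all 7 in exon 1 and 0 in a kallikrein gene. At 50 bases, 0 of 1863 stretches were shared. The search covered 206694 annotated transcripts and not the rest of the genome, and the read length is not given in the sources used here.

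On the chromosome, KLKP1 (ENSG00000197588, chr19:50882096-50896398, minus strand, RefSeq on GRCh38.p14) is the fifth of 16 genes counted from KLK1. It lies between KLK2, 1.53 kb away on the plus strand, and KLK4, 9.95 kb away on the minus strand. KLK3 and KLK1 lie 21.3 and 58.3 kb away, beyond KLK2. Of the 16 genes, 14 are on the minus strand, and KLK2 and KLK3 are the exceptions. In GENCODE v29 no other gene overlaps KLKP1, KLK1 or KLK2 on either strand.

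KLKP1 was at the limit of detection with DMSO and clearly present after beta-sitosterol. It had 325, 327 and 301 counts in beta-sitosterol replicates 1, 2 and 3, against 0, 3 and 0 counts in DMSO replicates 1, 2 and 3. Scaled to library size, these were 11.0, 12.4 and 10.9 CPM after beta-sitosterol and 0, 0.094 and 0 CPM with DMSO. The groups were far apart, and all 3 DMSO counts came from a single library.

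The mean was 11.4 ± 0.80 CPM after beta-sitosterol and 0.031 ± 0.054 CPM with DMSO (SD, n = 3 each). Exact Poisson 95% intervals for single libraries ran from 9.74 to 13.8 CPM after beta-sitosterol and reached at most 0.275 CPM with DMSO. Summed counts were 953 against 3. Their scaled ratio of 383 has a counting interval of 131 to 1861, which covers counting error only. Without DMSO replicate 2 the DMSO counts were 0. With 3 counts over the DMSO libraries as the floor, the ratio was then at least 262. That value depends on the floor, and the interval over all libraries starts lower, at 131. Without DMSO replicate 1 the ratio was 253, with a counting interval of 86.4 to 1231. Without DMSO replicate 3 it was 251, with an interval of 85.7 to 1220. The denominator rests on 3 reads, so the ratio is far less certain than the level after beta-sitosterol.

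Per transcript length, in the authors' TPM, KLKP1 stood at 14.1, 15.5 and 13.6 after beta-sitosterol and at 0, 0.105 and 0 with DMSO. Its mean TPM exceeded that of 76.1% of the 17165 genes above 0 after beta-sitosterol. With DMSO it exceeded 13.1% of 16502 such genes. A barely detected pseudogene was thus in the upper part of the expressed range after treatment.

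KLK1 (ENSG00000167748, chr19:50819146-50823787), the tissue kallikrein proper, was the other member with a clear difference. It had 192, 175 and 206 counts in beta-sitosterol replicates 1, 2 and 3, against 51, 78 and 48 counts in the DMSO replicates. Its level was 6.51, 6.62 and 7.49 CPM after beta-sitosterol and 1.50, 2.45 and 1.39 CPM with DMSO. Every treated library lay above every DMSO library, and DMSO replicate 2 was the highest of the DMSO libraries.

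The scaled ratio of summed KLK1 counts, 573 against 177, was 3.90, with a counting interval of 3.29 to 4.65. It stayed between 3.51 and 4.77 with each library left out. Over all 11525 tested genes, 485 (4.21%) were at least 3-fold higher after beta-sitosterol by the edgeR estimate. KLK1 was chosen from this comparison, so nothing is read from that share. In the authors' TPM, KLK1 was at 5.51, 5.50 and 6.15 after beta-sitosterol and at 1.73, 1.81 and 1.60 with DMSO. KLK1 was thus already expressed with DMSO, which KLKP1 hardly was. In each treated library KLKP1 exceeded KLK1 in TPM, while in each DMSO library KLK1 exceeded KLKP1.

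KLK2 (ENSG00000167751, chr19:50873439-50880567), a prostate protease that activates KLK3, is the gene nearest to KLKP1. Its counts were 11, 4 and 12 after beta-sitosterol and 0, 4 and 14 with DMSO. Scaled, these were 0.373, 0.151 and 0.436 CPM after beta-sitosterol and 0, 0.125 and 0.404 CPM with DMSO. The groups overlapped, and the spread among DMSO libraries was wider than the difference between group means.

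The scaled ratio of summed KLK2 counts, 27 against 18, was 1.81, with a counting interval of 0.960 to 3.49. Without DMSO replicate 3 it was 5.34, with an interval of 1.86 to 21.0. Without beta-sitosterol replicate 2 it was 2.26, with an interval of 1.16 to 4.44. Without DMSO replicate 1 it was 1.20. These intervals cover counting error only and not the spread between libraries, so they are no test of a difference. With each library left out, the ratio for KLK2, the closest neighbour of KLKP1, ran from 1.20 to 5.34. It was thus not stable at this depth.

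**Figure D1:**
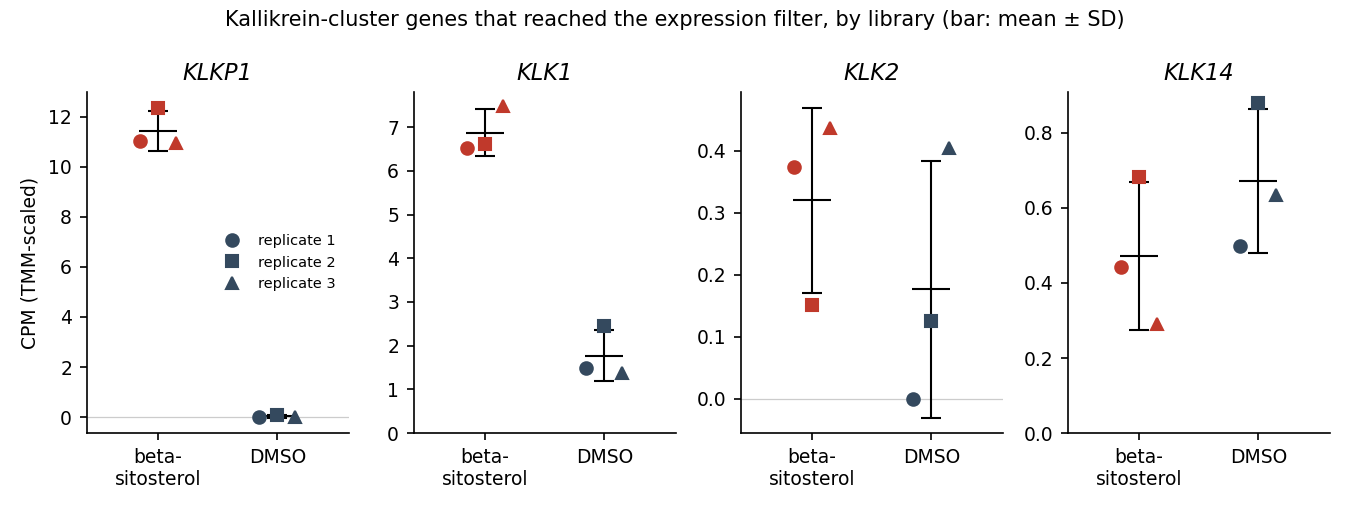
CPM in each library for the 4 genes of the cluster that reached the expression filter, with beta-sitosterol in red on the left and DMSO in blue on the right of each panel. Bars give mean ± SD of 3 libraries, marker shapes give the replicate, and each panel has its own linear axis; treated and DMSO points are apart for KLKP1 and KLK1 and overlap for KLK2 and KLK14.

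KLK3, which encodes prostate-specific antigen, was listed at 0 in all 6 libraries. KLK4, a protease of developing tooth enamel, was also listed at 0 throughout. The same held for KLK10 and KLK15. KLK5, which takes part in shedding of the outer skin, had 1 count, in beta-sitosterol replicate 2, and 0 elsewhere. KLK11 had 3 counts, all in DMSO replicate 3. A sum of 0 over a group allows up to 0.0360 CPM after beta-sitosterol and 0.0298 CPM with DMSO, at 3 counts over its libraries. These 6 genes were therefore not detected, or hardly detected, at this depth in either group. All 9 members have the same symbol and identifier in GENCODE v29.

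Of the 9 members, 3 passed the filter on low counts, KLKP1, KLK1 and KLK2, and 2 of these 3 had every treated library above every DMSO library. Over all 11525 genes that passed, 27.0% did so, and 29.1% had every treated library below every DMSO library. The members were chosen from this comparison, so nothing is read from that count. Summed over the 8 members other than KLKP1, levels were 6.89, 6.81 and 7.92 CPM after beta-sitosterol and 1.50, 2.57 and 1.88 CPM with DMSO. KLK1 supplied 94.5% to 97.2% of those counts after beta-sitosterol and 73.8% to 100% with DMSO. The summed difference among the neighbours is thus almost entirely that of KLK1.

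The 7 other kallikrein genes of the cluster completed this picture. KLK14, a protease gene at the far end, 181 kb from KLKP1, was the only one of them to pass the filter. It had 13, 18 and 8 counts after beta-sitosterol, against 17, 28 and 22 with DMSO. Its level was 0.441, 0.681 and 0.291 CPM after beta-sitosterol and 0.499, 0.878 and 0.635 CPM with DMSO, and the groups overlapped. The log2 fold change was -0.51 ± 0.40 (SE; edgeR adjusted p = 0.339). In the authors' TPM, where KLK14 had 0.787, 1.19 and 0.504 after beta-sitosterol and 1.22, 1.37 and 1.54 with DMSO, the groups did not overlap. KLK6 had 1 count, in a DMSO library, and KLK13 had 1, in a treated library. KLK7, KLK8, KLK9 and KLK12 were listed at 0 in all 6 libraries, and the identifier of the KLK9 row belongs to another gene name in GENCODE v29.

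By mean TPM the order after beta-sitosterol was KLKP1 at 14.4 ± 1.02, KLK1 at 5.72 ± 0.37, KLK14 at 0.828 ± 0.347 and KLK2 at 0.045 ± 0.021 (SD, n = 3). With DMSO it was KLK1 at 1.71 ± 0.11, KLK14 at 1.38 ± 0.16, KLKP1 at 0.035 ± 0.061 and KLK2 at 0.031 ± 0.042. KLKP1 and KLK2 did not differ beyond their spread with DMSO, whereas KLKP1 headed the order after beta-sitosterol. All other genes of the cluster were below these 4 in TPM in both groups.

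**Figure D2:**
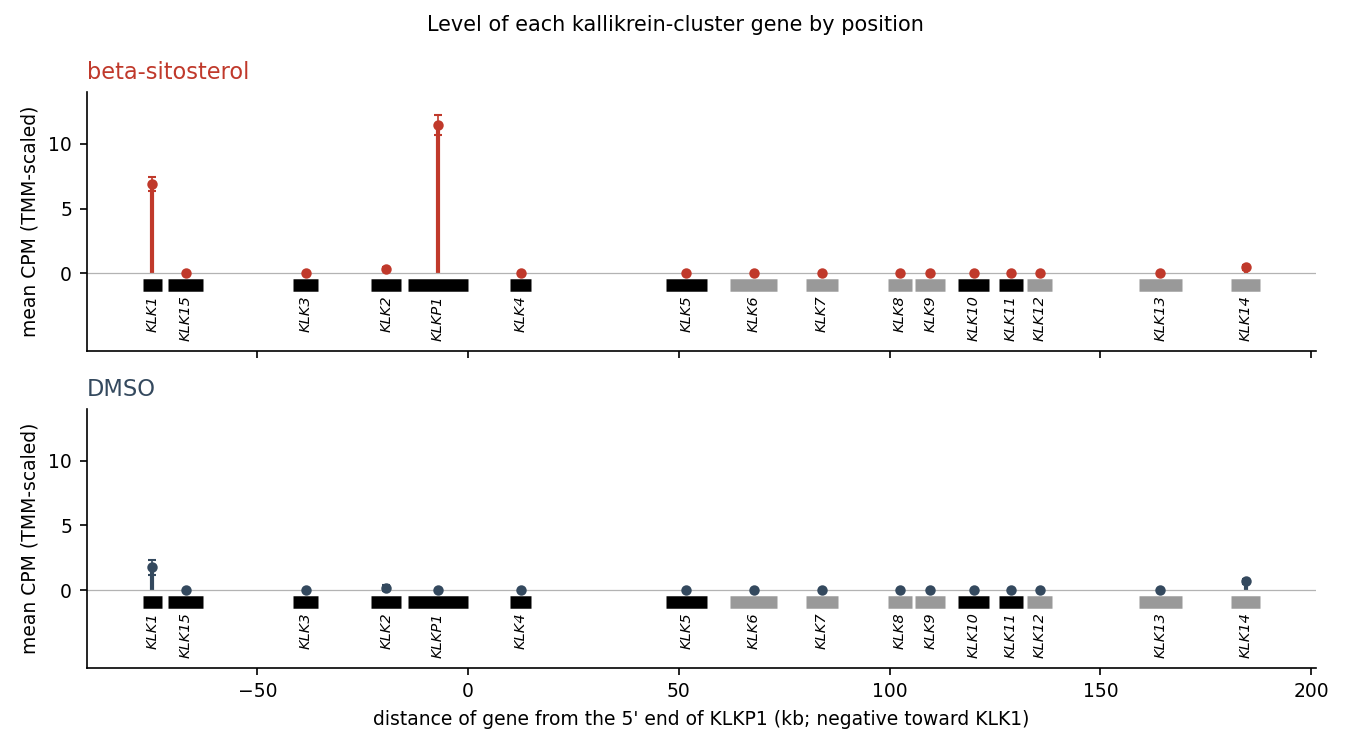
Mean CPM of each of the 16 genes along the cluster, beta-sitosterol above and DMSO below, against distance in kb from the 5′ end of KLKP1; stems show the mean, whiskers the SD of 3 libraries, black boxes the 9 members and grey boxes the other kallikrein genes. After beta-sitosterol KLKP1 stands at 11.4 CPM and KLK1 at 6.87 CPM, while the genes between and beside them, KLK15, KLK3, KLK2 and KLK4, stay close to 0.

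Kallikreins are best known from prostate and other epithelia, so markers of those cells were read in the same libraries. The 5 prostate luminal markers summed to 0 to 0.034 CPM after beta-sitosterol and 0 to 0.031 CPM with DMSO, and ACP3, FOLH1 and TMPRSS2 were at 0 in all libraries. The 5 epithelial markers summed to 0.102 to 1.05 CPM after beta-sitosterol and 0.063 to 0.088 CPM with DMSO. The highest value was in beta-sitosterol replicate 3, where KRT8, a keratin, had 18 counts. KLKP1 was no higher in that library, at 10.9 CPM, than in the other treated libraries. KLK1 and KLK2 were highest there, at 7.49 and 0.436 CPM. T cell markers summed to 0 CPM after beta-sitosterol and to 0 to 0.063 CPM with DMSO. Myeloid markers summed to 6.35 to 8.40 CPM after beta-sitosterol and 4.61 to 7.04 CPM with DMSO, and the part of epithelial and myeloid transcripts in the KLKP1 and KLK1 values was not tested.

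Genes outside the cluster but close to it were then tested, to see whether the difference at KLKP1 and KLK1 extended to their surroundings. Within 500 kb on either side of the 265.1 kb cluster, RefSeq lists 76 other genes, of which 70 were in the table. Of these, 39 were at 0 in all libraries and 20 could be tested. With edgeR, 5 were higher after beta-sitosterol and 2 were lower at an adjusted p under 0.05, or 35% of those tested. Over all tested genes 40.8% were called, 2185 higher and 2512 lower, so the share called near the cluster was not above the background. The median log2 fold change was 0.06 in the window and -0.04 over all tested genes.

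The tested genes immediately beside the cluster did not pass. For SNORD88A, a small nucleolar RNA gene before KLK1, the estimate was -0.81 ± 0.73 log2 units (SE) with an edgeR adjusted p of 0.399. It lies within C19orf48, which was listed at 0 in all libraries. Without DMSO replicate 2 it passed, at -1.29 log2 units (edgeR adjusted p = 0.0398). CTU1, a tRNA thiolation gene after KLK14, had 18.7, 17.2 and 15.9 CPM after beta-sitosterol and 16.7, 8.65 and 24.7 CPM with DMSO. The treated values lay within the DMSO range, and the log2 fold change was 0.05 ± 0.32 (SE; edgeR adjusted p = 0.913). Its sign turned, at -0.01 and -0.27, without beta-sitosterol replicate 1 or without DMSO replicate 2.

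The 7 genes that passed all had their centre about 447 kb or more from the 5′ end of KLKP1. JOSD2, a deubiquitinase gene nearer to KLKP1 and named after its values were seen, narrowly missed at 1.31 ± 0.46 log2 units (SE; edgeR adjusted p = 0.0504). It had 13.8, 12.1 and 12.8 CPM after beta-sitosterol and 5.63, 1.57 and 8.37 CPM with DMSO, with no overlap. The count of higher genes was 6 with RLE factors, library totals, no filter, DESeq2, or without DMSO replicate 2 or 3, and 4 without beta-sitosterol replicate 2. MYBPC2, a myosin-binding protein gene of fast skeletal muscle, had the largest rise of the 7. It had 40.0, 41.6 and 45.0 CPM after beta-sitosterol and 14.4, 11.5 and 14.6 CPM with DMSO (log2 fold change 1.64 ± 0.14 SE, edgeR adjusted p = 0.000165). NAPSB, a pseudogene of an aspartic protease, rose by 1.50 ± 0.22 (adjusted p = 0.00128), and its close copy NAPSA by 0.91 ± 0.21 (adjusted p = 0.00932), with edgeR. Reads of NAPSB and NAPSA may be split between copies. In GENCODE v29 both overlap NR1H2, which they do not at the RefSeq positions used for the window. NAPSA missed the threshold without beta-sitosterol replicate 2 (edgeR adjusted p = 0.0512). On the other side of the cluster, ETFB, a mitochondrial electron transfer gene, rose by 1.31 ± 0.27 (edgeR adjusted p = 0.00538). NKG7, a gene of cytotoxic lymphocyte granules, rose by 1.38 ± 0.32 (edgeR adjusted p = 0.00894).

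SPIB, an ETS transcription factor gene of B cells, averaged 25.1 ± 2.64 CPM after beta-sitosterol and 44.4 ± 9.74 CPM with DMSO (SD, n = 3 each). Its log2 fold change was -0.82 ± 0.18 (SE; edgeR adjusted p = 0.00786). POLD1, the catalytic subunit gene of DNA polymerase delta, fell by 0.73 ± 0.25 log2 units (SE) with an edgeR adjusted p of 0.0439. Its groups overlapped, since it had 171.7 CPM in beta-sitosterol replicate 1 and 169.5 CPM in DMSO replicate 2. The POLD1 call was lost when any library other than DMSO replicate 2 was left out (adjusted p = 0.106 to 0.132). Its log2 fold change was -0.40 without DMSO replicate 3, -0.98 without DMSO replicate 2, and -0.69 to -0.76 without any one of the others. In GENCODE v29, SPIB and POLD1 both overlap another annotated gene, as ETFB does. Strand use in counting is not given in the sources used here.

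**Figure D3:**
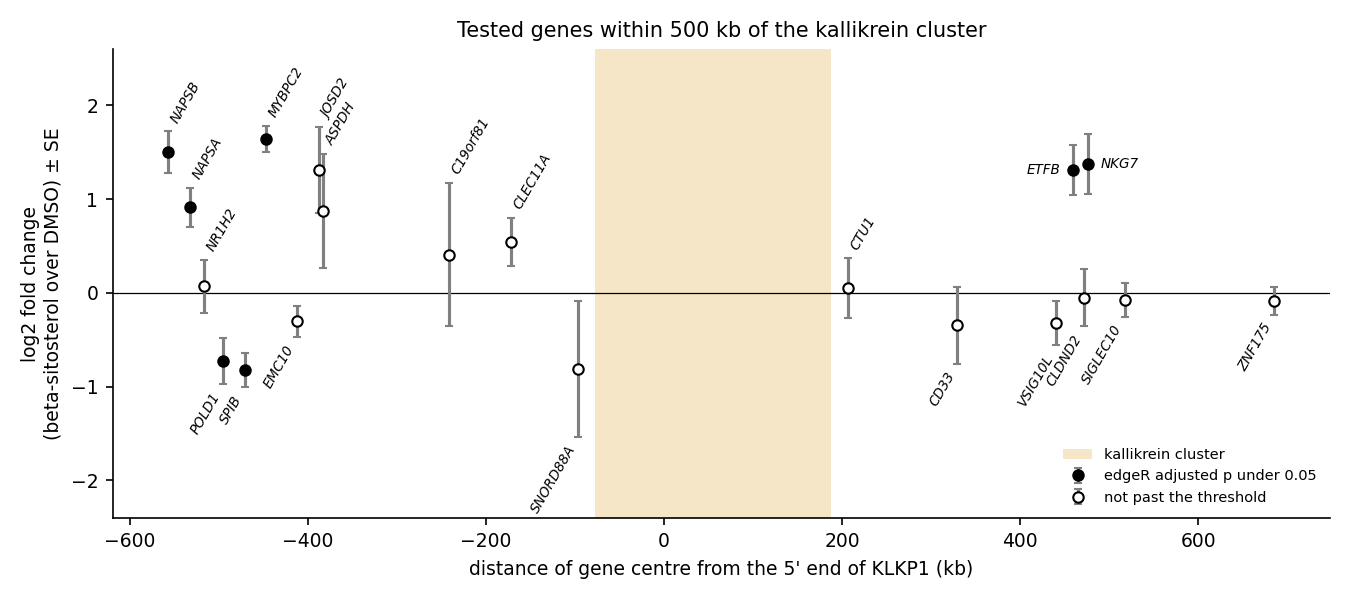
Log2 fold change, beta-sitosterol over DMSO, with SE from edgeR, for the 20 tested genes within 500 kb of the kallikrein cluster, against distance of the gene's centre from the 5′ end of KLKP1 in kb. Filled points passed the threshold and open points did not; the shaded band is the cluster, and the filled points all lie at the outer parts of the window, with SNORD88A and CTU1 open beside the band.

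Kallikreins act on kininogen, on receptors opened by proteolysis and on the urokinase system, and are held back by protease inhibitors. Of 18 genes for such partners, 6 were at 0 in all libraries and 5 could be tested with edgeR, of which 1 was higher after beta-sitosterol and 0 were lower, beside 40.8% called over all tested genes. The called gene was SPINT2, which encodes a Kunitz-type inhibitor of serine proteases. It had 55.2, 51.6 and 54.3 CPM after beta-sitosterol and 27.3, 18.8 and 31.6 CPM with DMSO, with no overlap (log2 fold change 1.05 ± 0.19 SE, edgeR adjusted p = 0.00289). The 4 tested genes that did not pass were A2M, PLAU, PLAUR and SPINT1, named after their values were seen. PLAU narrowly missed at -0.80 ± 0.30 log2 units (SE; edgeR adjusted p = 0.0599). PLAUR and SPINT1 stood at -0.61 ± 0.35 and -0.16 ± 0.12 (edgeR adjusted p = 0.194 and 0.322). For PLAU, PLAUR and SPINT1 every treated library lay below every DMSO library in CPM, as for 29.1% of all tested genes. For A2M the groups overlapped. The list's median log2 fold change was -0.16. KLKB1, the plasma kallikrein gene, which is not part of the cluster, had 2, 2 and 6 counts after beta-sitosterol and 0 in every DMSO library, too few to be tested. It too was named after its values were seen.

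Several kallikrein genes, above all KLK2 and KLK3, respond to steroid hormone receptors in the prostate, and beta-sitosterol is itself a sterol, so a list of 18 receptors, cofactors and targets was read. Of these, 3 were at 0 in all libraries and 9 could be tested with edgeR, of which 1 was higher and 4 were lower after beta-sitosterol, beside 40.8% called over all tested genes. The list's median log2 fold change was -0.39.

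The gene of this list that rose was TSC22D3, a glucocorticoid-induced gene also known as GILZ. It averaged 55.4 ± 1.73 CPM after beta-sitosterol and 17.7 ± 3.08 CPM with DMSO (log2 fold change 1.65 ± 0.15 SE, edgeR adjusted p = 0.000219). FKBP5, another glucocorticoid-responsive gene that encodes a receptor cochaperone, had the opposite sign at -0.45 ± 0.14 (SE; edgeR adjusted p = 0.0303). The FKBP5 call was lost without any one treated library or without DMSO replicate 1 (adjusted p = 0.0645 to 0.111). ABHD2, a lipid hydrolase gene, fell by 1.20 ± 0.12 on the log2 scale (edgeR adjusted p = 0.000251). The receptor coactivator genes NCOA2 and NCOA1 fell by 1.23 ± 0.15 and 1.47 ± 0.34 (edgeR adjusted p = 0.000616 and 0.00903). NCOA1 was at 3.66, 4.58 and 3.56 CPM after beta-sitosterol and 7.84, 17.3 and 7.47 CPM with DMSO, DMSO replicate 2 being the highest.

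Other genes that were silent or nearly so with DMSO were counted as a description. The limits were chosen after the values were seen, and the limit for DMSO equals KLKP1's own count, so the place of KLKP1 among these genes follows from the choice. In all, 4454 genes had at least 1 count in all and at most 3 counts over the DMSO libraries. Of these, 4152 had fewer than 10 counts over the treated libraries. In 7, KLKP1 included, every treated library had at least 30 counts. The other 6, by summed counts after beta-sitosterol, were RNA5-8SN4 with 386, MIR3648-2 with 370, RNA5-8SN3 with 245, RNA5SP443 with 170, ARHGEF25 with 169 and FRG2B with 104. No other kallikrein gene was among the 7, which follows from the counts given above. KLK1, KLK2 and KLK14 had more than 3 DMSO counts, and the others had at most 3 counts in all.

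The genes whose profiles were nearest to that of KLKP1, by Euclidean distance of log2 CPM over the 6 libraries, were MIR3648-2 (2.71), RNA5-8SN4 (2.83), MIR3648-1 (2.85), PLA2G4C (4.05) and RNA5-8SN3 (4.06). MIR3648 and RNA5-8S genes belong to the repeated ribosomal DNA units, so their counts may be split between near-identical copies. MIR3648-2 had 137, 102 and 131 counts after beta-sitosterol and 0 in every DMSO library. PLA2G4C, a phospholipase A2 gene, had 71, 114 and 111 counts after beta-sitosterol and 4, 6 and 8 with DMSO. With a smaller prior count of 0.5, 4 of these 5 remained among the nearest, and on log2(TPM + 1) 0 did.

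**Figure D4:**
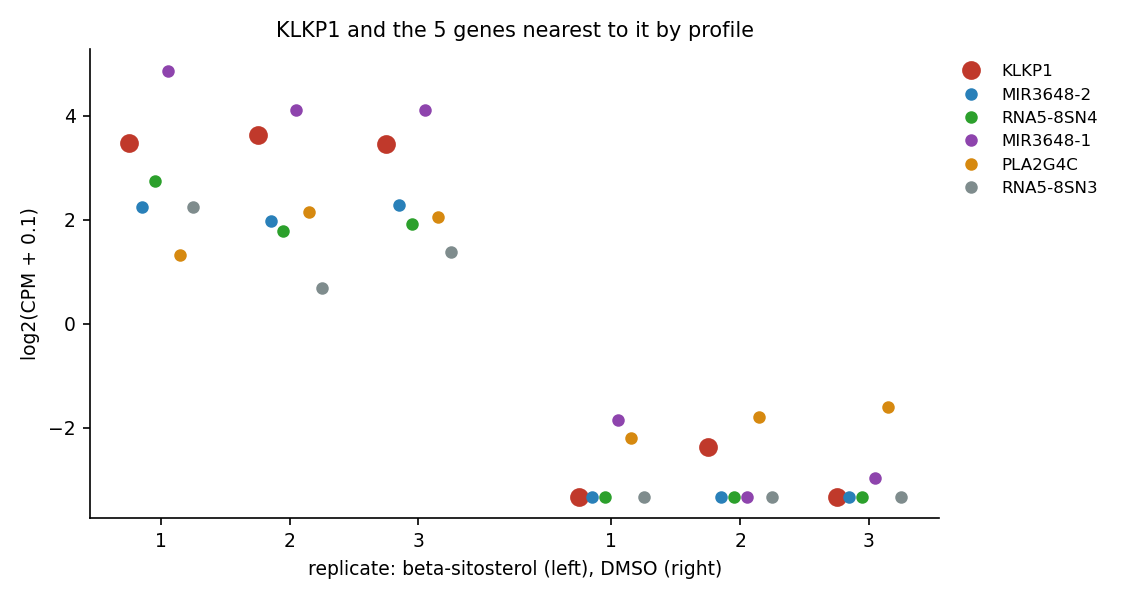
Level of KLKP1 and of the 5 genes with the nearest profile in each library, as log2(CPM + 0.1), with beta-sitosterol replicates on the left and DMSO replicates on the right. KLKP1 (large red points) stays level across the treated libraries and at the bottom of the scale in DMSO replicates 1 and 3, where its count was 0.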

How the data were processed

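Total RNA of SU-DHL-8 cells was sequenced in 6 libraries, 3 per group. The authors deposited raw read counts for each gene, and TPM values that they scaled for gene length and library. The listed TPM summed to 57.0% to 57.8% of a full TPM total in treated libraries and to 64.6%, 39.5% and 69.2% in DMSO replicates 1, 2 and 3, so TPM levels carry a denominator that differs between libraries. The submitters' processing notes name StringTie 2.2.1, STAR 2.7.10, fastp 0.23.2 and featureCounts 2.0.1 with GRCh38. The sources used here do not give annotation, strand setting, read length or the treatment of reads with several matches.

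Of 65807 rows, 61 repeats of a symbol were dropped, 2 of which held counts. Counts were tested on the whole table with the two-sided quasi-likelihood F test of edgeR 4.0.16 in R 4.3.3 (TMM, filterByExpr, treatment as the only term, Benjamini-Hochberg threshold 0.05). DESeq2 1.42.0, other scalings and filters, a replicate block and leaving out each library were alternatives. SE was obtained by dividing the size of the log2 fold change by the root of F. Intervals are exact 95% Poisson or conditional binomial ones and cover counting error only. Profile distances used a prior count of 2. Alignments used Biopython 1.88, with GENCODE v29 for transcripts and strand, and RefSeq for gene positions.

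The members, lists and tests were chosen with earlier results of these data known. Named by rule were all members, the other kallikrein genes, window genes that passed (up to 8) and the nearest tested gene on each side, list genes that passed (up to 6 per list), and the 5 nearest profiles. From the results, 1 gene of the steroid receptor list is not reported here.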

Additional observations from a re-analysis of the deposited data

How the results depend on the processing

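The level of KLKP1 after beta-sitosterol was 14.4 in TPM, against 11.4 in CPM, and the summed level of the other 8 members was 5.77 in TPM, scales that differ by gene length and denominator. Calls over all genes ranged from 3094 to 6640 with 1 library left out, the highest without DMSO replicate 2. Leaving out 1 library also gave 1 to 4 lower genes near the cluster, 0 to 1 lower partners and 1 to 2 higher genes of the steroid receptor list. RLE factors gave 1 lower gene near the cluster, POLD1 being lost at an adjusted p of 0.0527. RLE factors, library totals, the filter of 1 CPM in 3 libraries and DESeq2 each gave 2 higher genes in the steroid receptor list, and dropping the filter gave 2 higher partners. On log2(TPM + 1), 0 of the 5 nearest profiles were shared. With 1 library left out, the log2 fold change of CTU1 ranged from -0.27 to 0.49, its sign turning at -0.01 without beta-sitosterol replicate 1 and -0.27 without DMSO replicate 2. That of SNORD88A passed at -1.29 without DMSO replicate 2 (adjusted p = 0.0398), and NAPSA missed without beta-sitosterol replicate 2 (adjusted p = 0.0512). The cause of these changes was not tested. Whether replicate numbers pair the samples was not settled by the data. Deviations of same-numbered libraries correlated at 0.039, 0.101 and 0.154, and those of other pairs at -0.141 to 0.0245. Each library correlated best with its own number, but the values were small, and the main fit took the samples as unpaired. With the replicate block, 4743 genes were called, against 4697 without it, and 6 higher genes near the cluster against 5. Depth limits every kallikrein gene except KLK1, and for KLKP1 it limits the DMSO level and the ratio.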
